A study of Mus musculus with 12 samples.

Results

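The 35 genes described here were listed by name as members of the SREBP pathway, which controls the synthesis of sterols and fatty acids in animal cells. The list holds 5 regulators, 19 genes of sterol synthesis and 11 genes of fatty acid synthesis. Of the 35, 34 are among the 12643 genes of the count tables, with 18 in the sterol arm, and Hmgcs1 was not analysed here. All 34 passed the filter on low counts, which removed 0 genes. The samples were MIN6 cells, an insulin-producing line derived from a mouse insulinoma, at passage 29 and kept in high glucose medium. They received an siRNA against Pdx1, the homeodomain factor that drives the beta-cell programme, or a control siRNA called NT, by nucleofection, and were collected 72 h later. Both kinds of culture gave IP RNA, recovered with purified ribosomes by TRAP (translating ribosome affinity purification), and total RNA. The 4 groups were therefore Pdx1 siRNA IP RNA, NT siRNA IP RNA, Pdx1 siRNA total RNA and NT siRNA total RNA, with 3 libraries in each, 12 in all. The sources used here do not name the tagged protein or the kit, nor say whether reads kept their strand. Since the labels are silent on whether the 3 libraries of a group are separate cultures, p-values cover the spread between libraries only, and this spread may be technical.

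SREBP proteins are transcription factors made as precursors in the membrane of the endoplasmic reticulum. There Scap, a sterol-sensing escort, binds them, and the Insig proteins retain the complex while sterols are plentiful. When sterols run low the complex moves to the Golgi, proteases free the DNA-binding part, and this part enters the nucleus and switches on the genes below. Srebf2 is best known for sterol genes and Srebf1 for fatty acid genes, and in beta cells the products go into the membranes of the secretory pathway, among other places.

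The libraries held 29430690 to 45806807 counts over all genes, and the 34 listed genes took 0.656% to 1.32% of them. Within a group, the correlation of replicates over all genes was 0.991 to 0.998, and all pairs differed by more than sampling noise. Pdx1, the targeted gene, averaged 45.5 ± 5.84 CPM in Pdx1 siRNA IP RNA and 110 ± 5.85 CPM in NT IP RNA (SD, n = 3 each), a log2 fold change of -1.27. It averaged 51 ± 5.54 CPM in Pdx1 siRNA total RNA and 117 ± 6.89 CPM in NT total RNA, a log2 fold change of -1.20. CPM here are gene counts scaled to library size with TMM factors. All 9 beta-cell markers listed were measured, and the 2 insulin genes among them took 6.69% to 18% of a library's counts. With Pdx1 siRNA, 1 beta-cell marker rose and 4 fell in IP RNA, and 2 rose and 3 fell in total RNA. Their summed level was 186171 to 229995 CPM in Pdx1 siRNA IP RNA against 205422 to 240046 CPM in NT IP RNA. In total RNA it was 94938 to 101271 CPM with Pdx1 siRNA against 104960 to 116083 CPM with NT siRNA. Of 9 markers of other islet endocrine cells, 6 were measured (Gcg, Ppy, Irx1, Irx2, Ttr and Gc), and all 6 rose with Pdx1 siRNA in both fractions. Their summed level was 61430 to 77530 CPM in Pdx1 siRNA IP RNA against 19709 to 23901 CPM in NT IP RNA, and 31497 to 35175 CPM in Pdx1 siRNA total RNA against 10766 to 13035 CPM in NT total RNA. Of 7 acinar and duct markers only Spp1 was measured, of 5 adipocyte and hepatocyte markers only Alb, and of 8 immune, endothelial and stromal markers 0. Spp1 rose with Pdx1 siRNA by 1.32 in IP RNA and by 1.42 in total RNA, and Alb rose in both fractions. Alb was at 0.996 to 1.57 CPM in Pdx1 siRNA IP RNA against 0.393 to 0.803 CPM in NT IP RNA, and at 1.71 to 2.57 CPM in Pdx1 siRNA total RNA against 0.805 to 0.928 CPM in NT total RNA. The part of these cell-type markers in the results on the listed genes was not tested. In bulk RNA, fewer cells of a type and less RNA per cell cannot be told apart. NT IP replicate 3 and the 3 Pdx1 siRNA IP libraries stood apart from NT IP replicates 1 and 2 at some genes with near-identical copies in the genome. At Rpl32l the Pdx1 siRNA IP libraries held 33, 37 and 22 counts, and the NT IP libraries held 1726, 1260 and 29. The Pdx1 siRNA total libraries held 728, 838 and 699 counts, and the NT total libraries held 932, 957 and 1131. In the model the total RNA libraries were placed with NT IP replicates 1 and 2. The comparison of IP against total RNA with Pdx1 siRNA therefore runs wholly across this library set. Calls on the siRNA effect in IP RNA that were lost when this library set was a term of the model are given with and without it. The size of that term rests on NT IP replicate 3 against NT IP replicates 1 and 2, as no other group is split by the set.

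The listed genes spanned a wide range of levels. In NT total RNA, per kb of transcript, Scd2 had the highest level at 793 ± 16.7 CPM per kb (SD, n = 3), followed by Acly at 347 ± 25.5, Fads1 at 279 ± 2.92, Srebf1 at 144 ± 6.69, Scd1 at 122 ± 5.29 and Fads2 at 108 ± 5.86 CPM per kb. The sterol genes were lower, with Msmo1 at 62.2 ± 2.84, Sqle at 61.4 ± 1.29 and Fdps at 61.4 ± 3.9 CPM per kb, which did not differ from each other beyond their spread. Scap at 36.6 ± 1.5 and Srebf2 at 36.4 ± 1.78 CPM per kb were also within each other's spread. At the low end stood Stard4 at 3.74 ± 0.084, Hsd17b7 at 3.15 ± 0.23, Acaca at 2.97 ± 0.161 and Idi1 at 0.555 ± 0.0891 CPM per kb. Idi1 rested on 25 to 98 counts per library, the lowest counts of the list. Summed over the arm, fatty acid synthesis genes held 5097 ± 355 CPM in Pdx1 siRNA IP RNA, 6166 ± 125 CPM in NT IP RNA, 7476 ± 732 CPM in Pdx1 siRNA total RNA and 8191 ± 239 CPM in NT total RNA. The sterol arm held 1067 ± 83.2, 1165 ± 46.9, 1105 ± 75.9 and 1121 ± 32 CPM in the same 4 groups. The regulators held 2171 ± 91.9 CPM in Pdx1 siRNA IP RNA, above 1234 ± 28.4 CPM in NT IP RNA, 1273 ± 171 CPM in Pdx1 siRNA total RNA and 1209 ± 7.66 CPM in NT total RNA. Srebf1 was the most abundant regulator in every group.

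The first question was how depletion of Pdx1 changed these genes in each fraction. In IP RNA, 7 listed genes rose and 13 fell with Pdx1 siRNA, that is 58.8% of 34, where 59.7% of all genes passed the test (29.2% higher and 30.4% lower). The median log2 fold change of the list was -0.15, against -0.01 over all genes. In total RNA, 5 rose and 10 fell, or 44.1% of the list, where 53% of all genes passed (23.8% higher and 29.2% lower), and the median was -0.04 for both the list and all genes. The number of listed genes past the test was thus close to or below the share over all genes in either fraction. Calls are adjusted p under 0.05 in edgeR's quasi-likelihood test, Benjamini-Hochberg adjusted over all 12643 genes. With upper-quartile scaling the split in total RNA was 8 higher and 8 lower instead of 5 and 10. Without Pdx1 siRNA total replicate 3, 3 were higher, and 5 were lower without NT total replicate 1 and 6 without NT total replicate 3. With NT IP replicate 3 as the only NT IP library, 6 instead of 13 were lower in IP RNA. The libraries of Pdx1 siRNA and NT did not overlap at 23 of 34 listed genes in IP RNA and at 16 in total RNA, and over all genes at 64.9% in IP RNA and 58.8% in total RNA. Among listed genes past the test in both fractions, 2 rose in both (Scap and Lpin1), 10 fell in both (Acat2, Mvk, Idi1, Lss, Ebp, Stard4, Scd2, Fads1, Acss2 and Me1) and none moved in opposite directions. The share of all genes that passed the same way in both fractions was not counted, so these counts cannot be set against it.

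**Figure D1:**
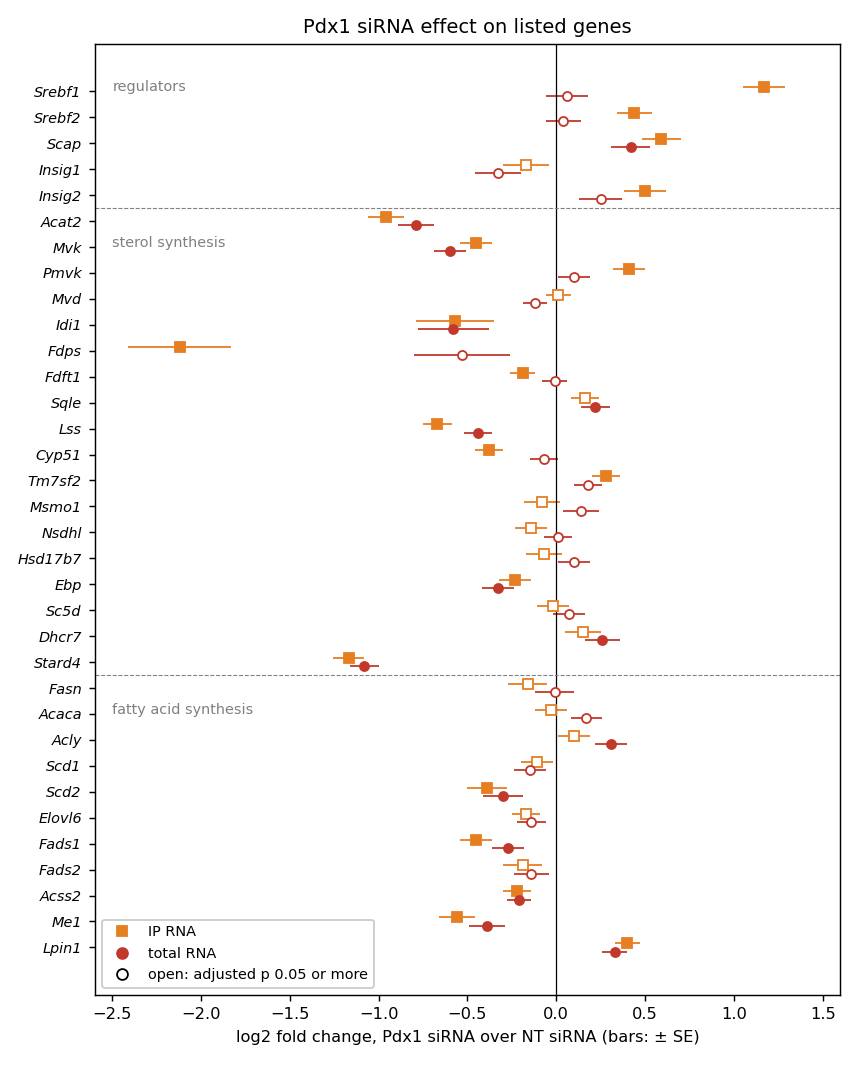
Log2 fold change of Pdx1 siRNA over NT siRNA (x axis) for each of the 34 listed genes (y axis), in IP RNA (squares) and total RNA (circles), with bars of ± 1 SE; filled symbols passed the test at an adjusted p under 0.05. Srebf1 stands at 1.17 in IP RNA and 0.06 in total RNA, Stard4 at -1.17 and -1.08, and most other genes lie within 0.6 of no change.

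Among the regulators the main change was in Srebf1, the gene of SREBP-1. In IP RNA Srebf1 had 1501, 1456 and 1212 CPM with Pdx1 siRNA, against 613, 622 and 613 CPM with NT siRNA. In total RNA it had 516, 698 and 728 CPM with Pdx1 siRNA, against 620, 649 and 592 CPM with NT siRNA. The IP libraries of the siRNAs were far apart and the total RNA libraries overlapped. Srebf1 rose 2.26-fold in IP RNA (log2 fold change 1.17, SE 0.12, adjusted p 7.8e-07), while its log2 fold change in total RNA was 0.06 (SE 0.12, adjusted p 0.685). The difference between these effects was 1.11 on the log2 scale (SE 0.17, adjusted p 0.0116 by the interaction term in edgeR). Srebf1 was the only listed gene past that test, that is 2.94% of the list, where 0.229% of all genes passed (0.174% higher and 0.0554% lower). Those were 29 genes, 22 higher and 7 lower in IP RNA, a split that became 22 and 20 with RLE scaling, 24 and 28 with upper-quartile scaling and 24 and 30 with the insulin genes left out. Their number was 4 to 571 with 1 library left out, with 571 without NT IP replicate 3. The size of the Srebf1 difference stayed between 0.97 and 1.20 in every setting tried, and the call did not. It was lost with the library set as a term (1.12, adjusted p 0.126) and with NT IP replicate 3 as the only NT IP library (1.11, adjusted p 0.24). It was also lost without NT total replicate 1 (adjusted p 0.0625), NT total replicate 3 (0.0572), Pdx1 siRNA IP replicate 1 (0.0581) or NT IP replicate 1 (0.0616). The rise within IP RNA kept its call in all 18 settings, with adjusted p up to 0.000213.

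Srebf1 had no near-identical copy in the annotated transcripts, and 3.1% of its exon sequence lay in other genes. Its transcript was rich in G and C, at 58.4%, more than 89.8% of all genes. The difference between the siRNA effects rose with GC content over all genes, with medians of -0.09, -0.05, -0.00, 0.06 and 0.15 over 5 equal classes from the lowest to the highest GC content. With offsets for GC content and transcript length, an alternative chosen after the data were seen, the Srebf1 difference was 1.04 (adjusted p 0.00975).

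The genes that hold or release SREBP moved less. Srebf2, the gene of SREBP-2, had 214, 198 and 204 CPM in Pdx1 siRNA IP RNA, against 149, 154 and 152 CPM in NT IP RNA, and rose 1.35-fold there (log2 fold change 0.44, adjusted p 0.00155). In total RNA its libraries overlapped (log2 fold change 0.04, adjusted p 0.754), and the difference between the fractions, 0.40, did not pass the test (adjusted p 0.175). Scap, the escort, rose in both fractions. It had 263, 248 and 313 CPM in Pdx1 siRNA IP RNA, against 169, 182 and 195 CPM in NT IP RNA, a log2 fold change of 0.59 (SE 0.11, adjusted p 3.7e-04). In total RNA Scap had 171, 217 and 235 CPM with Pdx1 siRNA, against 151, 162 and 151 CPM with NT siRNA, a log2 fold change of 0.42 (SE 0.11, adjusted p 0.00547). The groups did not overlap in either fraction. Of the Scap exon sequence, 13.2% overlaps 5830462I19Rik on the opposite strand. Insig2, a retention factor, had 120, 133 and 148 CPM in Pdx1 siRNA IP RNA, against 94.3, 88.1 and 102 CPM in NT IP RNA, and rose by 0.50 (SE 0.12, adjusted p 0.00178). That call was lost with the library set as a term (0.39, adjusted p 0.0671) and with NT IP replicate 3 as the only NT IP library (0.39, adjusted p 0.0864). Insig2 in total RNA gave 0.25 (adjusted p 0.0797). It was called higher there without NT total replicate 3 (0.41, adjusted p 0.0144) or Pdx1 siRNA total replicate 2 (0.34, adjusted p 0.0323), and with upper-quartile scaling (0.0386), DESeq2 (0.0442), the replicate block (0.0128) and the offsets (0.0369). Insig1, itself a classical SREBP target, gave log2 fold changes of -0.17 in IP RNA (adjusted p 0.29) and -0.33 in total RNA (adjusted p 0.0518), with overlapping libraries in both. For Insig1 in total RNA, adjusted p fell to 0.0363 without Pdx1 siRNA total replicate 1 and to 0.014 without NT total replicate 2. It was 0.00345 with the replicate block and 0.0418 with the offsets.

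**Figure D2:**
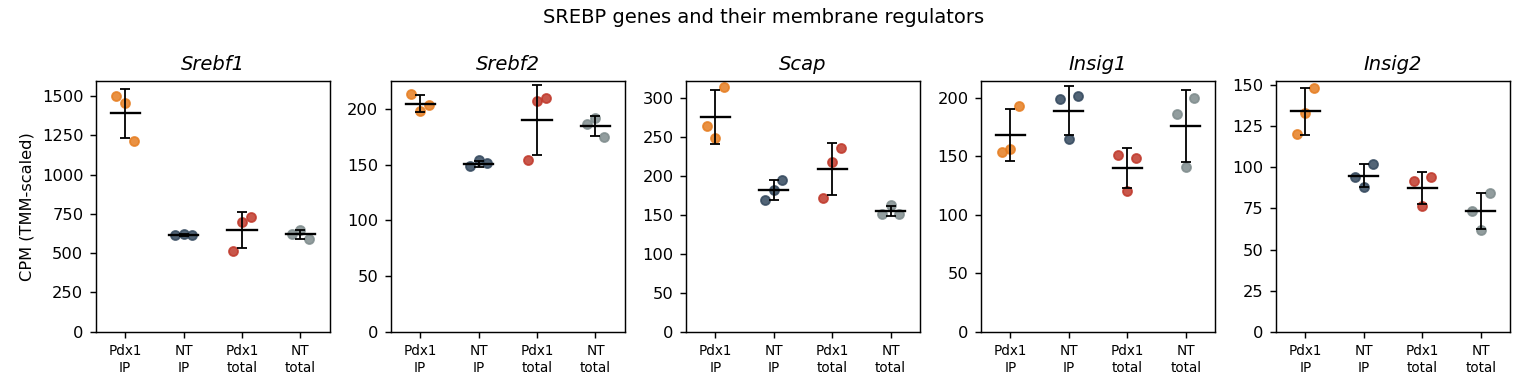
CPM on TMM-scaled library sizes (y axis) of the 5 regulators in the 4 groups of 3 libraries (x axis); points are libraries, and the bar and whiskers are mean ± SD. The 3 Pdx1 siRNA IP libraries of Srebf1 sit at 1212 to 1501 CPM, above all other libraries, which lie at 516 to 728 CPM.

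In the sterol arm, 2 of 18 genes rose and 9 fell in IP RNA, and 2 rose and 6 fell in total RNA, with medians of -0.17 in IP RNA and -0.04 in total RNA. The genes that fell in both fractions were Acat2, Mvk, Idi1, Lss, Ebp and Stard4. The genes past the test were 61.1% of the arm in IP RNA, where 59.7% of all genes passed, and 44.4% in total RNA, where 53% passed. Stard4, a soluble carrier that moves cholesterol between membranes, fell most of all listed genes in total RNA. It had 5.12, 5.04 and 3.92 CPM in Pdx1 siRNA IP RNA, against 10.8, 10.4 and 10.4 CPM in NT IP RNA. In total RNA Stard4 had 8.93, 9.26 and 8.85 CPM with Pdx1 siRNA, against 18.9, 19.5 and 18.7 CPM with NT siRNA. The groups were well apart, and Stard4 fell by 1.17 (SE 0.09, adjusted p 4.0e-08) in IP RNA and by 1.08 (SE 0.08, adjusted p 2.9e-08) in total RNA on the log2 scale. The call held in every setting tried, with adjusted p up to 6.82e-06 in IP RNA and 7.19e-07 in total RNA.

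Acat2, the cytosolic thiolase that joins acetyl-CoA units at the start of the pathway, had 11.5, 11 and 10.7 CPM in Pdx1 siRNA IP RNA, against 23.9, 20.3 and 20.2 CPM in NT IP RNA. In total RNA Acat2 had 11.4, 10.7 and 8.58 CPM with Pdx1 siRNA, against 18.9, 17.4 and 16.9 CPM with NT siRNA. It fell 1.95-fold in IP RNA (adjusted p 1.0e-06) and 1.73-fold in total RNA (adjusted p 8.3e-06), with no overlap. A stretch of 64% of the Acat2 transcript matched annotated transcripts of other genes, Acat3 and Tcp1, at 95% identity or more, so the share of reads from those genes is uncertain. Mvk, mevalonate kinase, had 24.4, 20.5 and 24.4 CPM in Pdx1 siRNA IP RNA, against 30.3, 29.1 and 35.3 CPM in NT IP RNA. In total RNA Mvk had 13.7, 13.5 and 14.1 CPM with Pdx1 siRNA, against 21.7, 20.4 and 20.5 CPM with NT siRNA. Mvk fell by 0.45 (SE 0.09, adjusted p 3.5e-04) in IP RNA and by 0.60 (SE 0.09, adjusted p 3.9e-05) in total RNA. Lss, lanosterol synthase, which closes the sterol rings, had 29, 25.7 and 29.1 CPM in Pdx1 siRNA IP RNA, against 45.1, 41.3 and 46.5 CPM in NT IP RNA. In total RNA Lss had 44.9, 52 and 51.1 CPM with Pdx1 siRNA, against 69.1, 67.4 and 64.6 CPM with NT siRNA. Its groups were apart in both fractions, with log2 fold changes of -0.67 (SE 0.08, adjusted p 4.5e-06) in IP RNA and -0.44 (SE 0.08, adjusted p 2.1e-04) in total RNA. Acat2, Mvk and Lss kept these calls in every setting tried.

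The remaining falls were smaller or less certain. Idi1, isopentenyl diphosphate isomerase, had 1.34, 1.19 and 0.726 CPM in Pdx1 siRNA IP RNA, against 1.54, 1.43 and 1.79 CPM in NT IP RNA, and fell by 0.57 (SE 0.22, adjusted p 0.0361). In total RNA Idi1 had 1.01, 1.02 and 1.35 CPM with Pdx1 siRNA, against 1.73, 1.39 and 1.93 CPM with NT siRNA, and fell by 0.58 (SE 0.20, adjusted p 0.0259). Its calls were lost in IP RNA without Pdx1 siRNA IP replicate 3 (-0.34, adjusted p 0.201), NT IP replicate 1 (0.061) or NT IP replicate 3 (0.106). In total RNA the Idi1 call was lost without Pdx1 siRNA replicate 1 (0.0627) or 2 (0.0972), or NT replicate 1 (0.0826) or 3 (0.156). Ebp, a sterol isomerase late in the pathway, averaged 128 ± 13.8 CPM in Pdx1 siRNA IP RNA and 150 ± 9.47 CPM in NT IP RNA, a log2 fold change of -0.23 (adjusted p 0.0363). In total RNA Ebp averaged 69.3 ± 5.87 CPM with Pdx1 siRNA and 87 ± 3.97 CPM with NT siRNA, a log2 fold change of -0.33 (adjusted p 0.00666). Adjusted p for Ebp was above 0.05 in IP RNA without Pdx1 siRNA IP replicate 1 (0.077) or 2 (0.157) or without NT IP replicate 1 (0.076) or 3 (0.123), and in total RNA without NT total replicate 1 (0.0512).

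Fdps, farnesyl diphosphate synthase, had the largest fold change of the list and the least settled. It had 15.9, 11.7 and 14.1 CPM in Pdx1 siRNA IP RNA, against 80.4, 74.8 and 25.6 CPM in NT IP RNA. In total RNA Fdps had 51.9, 52.9 and 53 CPM with Pdx1 siRNA, against 81.5, 73.2 and 73.2 CPM with NT siRNA. NT IP replicate 3 stood far below the other NT IP libraries, with the library set described above. The log2 fold change in IP RNA was -2.12 (SE 0.29, adjusted p 1.6e-05), and it was -0.89 with the library set as a term (adjusted p 4.71e-05) and -2.49 without NT IP replicate 3 (adjusted p 1.11e-11). In total RNA it was -0.53 (SE 0.27, adjusted p 0.106), and a fit on the total RNA libraries alone gave -0.50 (adjusted p 0.00022). The difference between the fractions was -1.59 (adjusted p 0.0642) with all libraries. It was -0.36 with the library set as a term (adjusted p 0.7), but passed the test without NT IP replicate 3 (-1.96, adjusted p 3.39e-08) and without Pdx1 siRNA total replicate 1 (-1.61, adjusted p 0.0478). Of the Fdps transcript, 85.9% matched annotated copies, Gm3571 and Gm5873, and 26.7% of its exon sequence was shared with Gm43738, so its counts are uncertain.

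Other sterol genes changed in a single fraction or in neither. Pmvk, phosphomevalonate kinase, had 88.3, 74.3 and 77.4 CPM in Pdx1 siRNA IP RNA, against 60.8, 56.4 and 62.8 CPM in NT IP RNA, and rose by 0.41 (SE 0.09, adjusted p 6.8e-04). In total RNA Pmvk gave 0.10 (adjusted p 0.342). Tm7sf2, a sterol reductase, rose by 0.28 in IP RNA (adjusted p 0.009), a call lost with the library set as a term (0.27, adjusted p 0.0849) and with offsets for GC content and length (0.15, adjusted p 0.0784). In total RNA Tm7sf2 gave 0.18 (adjusted p 0.0867). It was called higher there with upper-quartile scaling (adjusted p 0.0306), DESeq2 (0.0451) and the offsets (0.0407). The same held without Pdx1 siRNA total replicate 2 (0.0456) or NT total replicate 1 (0.0268). Cyp51, the lanosterol demethylase, fell by 0.38 in IP RNA (adjusted p 9.8e-04; with the library set as a term -0.29, adjusted p 0.0561) and gave -0.07 in total RNA. Fdft1, squalene synthase, fell by 0.19 in IP RNA (adjusted p 0.0324), and its calls were lost without Pdx1 siRNA IP replicate 2 (0.12), NT IP replicate 1 (0.101) or NT IP replicate 2 (0.0999) and with the library set as a term (-0.10, adjusted p 0.442). Of the Fdft1 exon sequence, 18.3% overlaps Ctsb on the opposite strand. Sqle, squalene epoxidase, rose by 0.22 in total RNA (adjusted p 0.0313), a call lost without Pdx1 siRNA total replicate 3 (0.15, adjusted p 0.149) or NT total replicate 3 (0.0539). Dhcr7, the last reductase of the pathway, rose by 0.26 in total RNA (adjusted p 0.0378). For Dhcr7 the call was lost without Pdx1 siRNA total replicate 2 (0.0821) or 3 (0.17, adjusted p 0.179) or NT total replicate 3 (0.0714), and with the offsets (0.21, adjusted p 0.0543). The other 5 sterol genes, Mvd, Msmo1, Nsdhl, Hsd17b7 and Sc5d, passed in neither fraction, with log2 fold changes of -0.14 to 0.01 in IP RNA and -0.12 to 0.14 in total RNA.

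**Figure D3:**
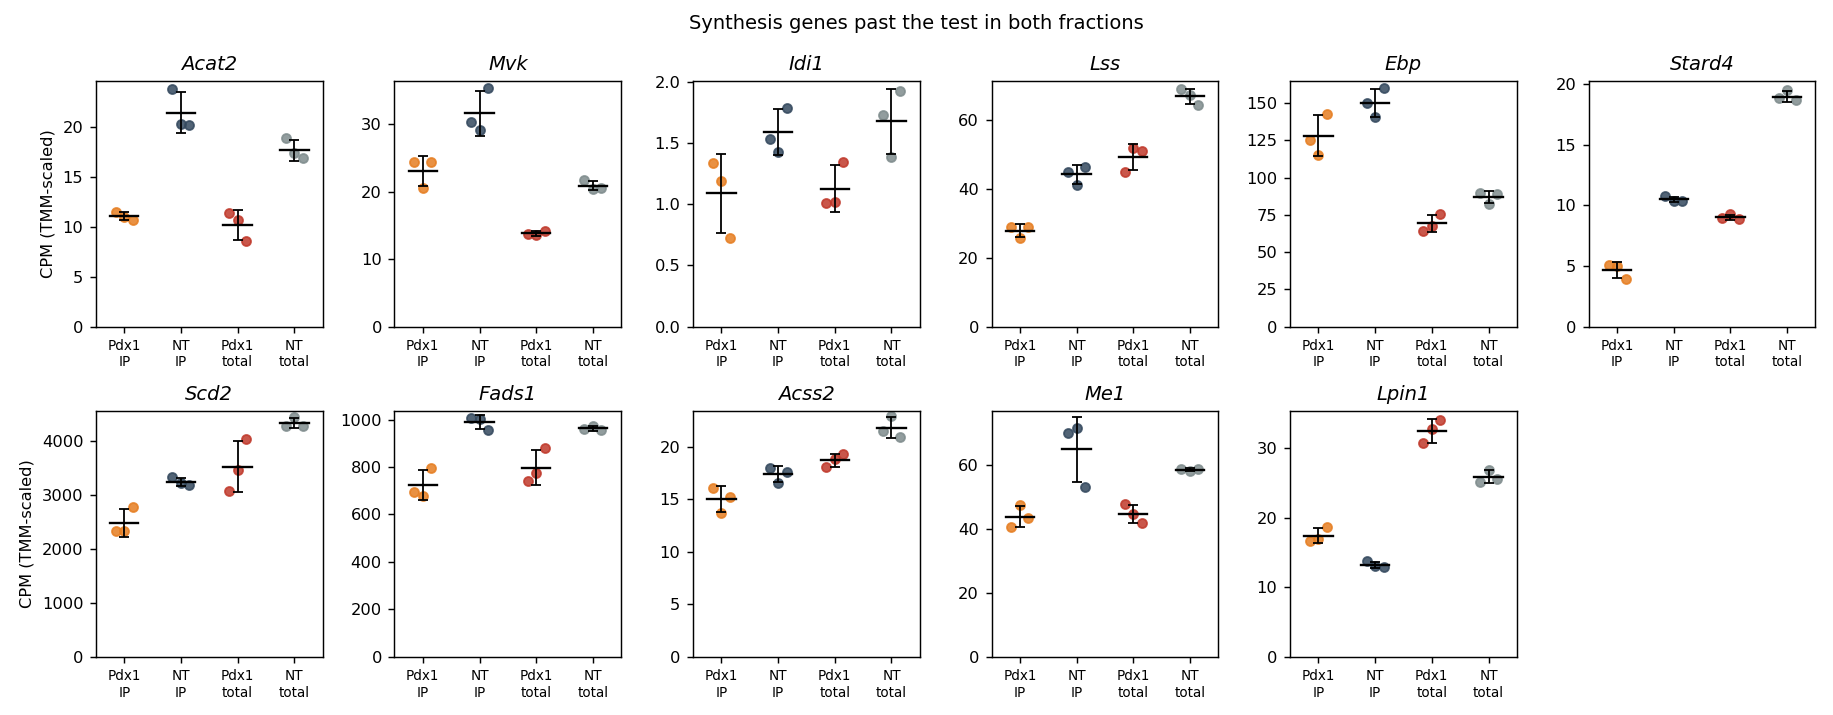
CPM on TMM-scaled library sizes (y axis) of the 11 synthesis genes past the siRNA test in both fractions, in the 4 groups of 3 libraries (x axis); points are libraries, and the bar and whiskers are mean ± SD. Of the 11, 10 are lower with Pdx1 siRNA than with NT siRNA in both fractions, and Lpin1 is higher, at 16.6 to 18.6 CPM against 12.9 to 13.7 CPM in IP RNA.

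In the fatty acid arm, 1 of 11 genes rose and 4 fell in IP RNA, and 2 rose and 4 fell in total RNA, with medians of -0.17 in IP RNA and -0.14 in total RNA. The genes past the test were 45.5% of the arm in IP RNA, where 59.7% of all genes passed, and 54.5% in total RNA, where 53% passed. The enzymes that build palmitate had no call with TMM scaling, all libraries and no offsets. Fasn, fatty acid synthase, gave -0.16 in IP RNA (SE 0.11, adjusted p 0.236) and -0.01 in total RNA (SE 0.11, adjusted p 0.97). With offsets for GC content and length, Fasn fell by 0.33 in IP RNA (adjusted p 0.000544). Acaca, acetyl-CoA carboxylase, gave -0.03 in IP RNA (adjusted p 0.782) and 0.17 in total RNA (adjusted p 0.119). For Acaca in total RNA a call was gained with upper-quartile scaling (0.22, adjusted p 0.0434) and without Pdx1 siRNA total replicate 1 (0.24, adjusted p 0.034) or NT total replicate 2 (0.26, adjusted p 0.0452), and 67.8% of its transcript matched an annotated copy, Gm5182, so its counts are uncertain. Acly, ATP citrate lyase, which supplies cytosolic acetyl-CoA, had 1732, 2089 and 1868 CPM in Pdx1 siRNA total RNA, against 1464, 1665 and 1475 CPM in NT total RNA, and rose 1.24-fold there (adjusted p 0.0135). That Acly call was lost without Pdx1 siRNA total replicate 2 (0.23, adjusted p 0.074), and in IP RNA Acly gave 0.10 (adjusted p 0.375). Acss2, which makes acetyl-CoA from acetate, fell by 0.22 in IP RNA (adjusted p 0.0225) and by 0.21 in total RNA (adjusted p 0.0208). In IP RNA the Acss2 call was lost with the library set as a term (-0.23, adjusted p 0.0989) and without Pdx1 siRNA replicate 2 (0.11) or NT replicate 1 (0.0834) or 3 (0.0532), and in total RNA it was lost without Pdx1 siRNA replicate 1 (0.0507) or NT replicate 1 (0.0934), 2 (0.193) or 3 (0.0623).

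The desaturases Fads1 and Scd2 and the NADPH source Me1 fell in both fractions. Fads1, the delta-5 desaturase, had 694, 680 and 796 CPM in Pdx1 siRNA IP RNA, against 1006, 1004 and 955 CPM in NT IP RNA. In total RNA Fads1 had 741, 773 and 880 CPM with Pdx1 siRNA, against 959, 975 and 957 CPM with NT siRNA. The groups did not overlap, and Fads1 fell by 0.45 (SE 0.09, adjusted p 5.0e-04) in IP RNA and by 0.27 (SE 0.09, adjusted p 0.0185) in total RNA. Scd2, a stearoyl-CoA desaturase and the most abundant gene of the list, had 2318, 2323 and 2776 CPM in Pdx1 siRNA IP RNA, against 3322, 3212 and 3178 CPM in NT IP RNA, and fell by 0.39 (adjusted p 0.0063). In total RNA Scd2 had 3071, 3464 and 4022 CPM with Pdx1 siRNA, against 4276, 4431 and 4269 CPM with NT siRNA, and fell by 0.30 (adjusted p 0.031). In total RNA the calls of Fads1 and Scd2 were each lost without Pdx1 siRNA replicate 1 or 2 or NT replicate 1, 2 or 3, with adjusted p up to 0.0926 for Fads1 and 0.133 for Scd2. The Scd2 call in IP RNA was lost with the library set as a term (-0.36, adjusted p 0.0804). Me1, the malic enzyme that yields cytosolic NADPH, had 40.7, 47.3 and 43.5 CPM in Pdx1 siRNA IP RNA, against 70, 71.4 and 53.1 CPM in NT IP RNA, and fell by 0.56 (SE 0.10, adjusted p 2.0e-04). In total RNA Me1 had 47.6, 44.6 and 41.9 CPM with Pdx1 siRNA, against 58.8, 57.9 and 58.8 CPM with NT siRNA, and fell by 0.39 (SE 0.10, adjusted p 0.00417). With NT IP replicate 3 as the only NT IP library the Me1 change in IP RNA was -0.28 (adjusted p 0.0648), and 62.5% of its transcript matched annotated copies. Scd1, Elovl6 and Fads2, a further desaturase, elongase and desaturase, gave -0.11, -0.17 and -0.19 in IP RNA and -0.15, -0.14 and -0.14 in total RNA, with no call. Fads2 was called lower in IP RNA with the offsets (-0.28, adjusted p 0.0127). Elovl6 was called lower in IP RNA with the replicate block (-0.17, adjusted p 0.0432) and without Pdx1 siRNA IP replicate 3 (-0.23, adjusted p 0.0343), and in total RNA without Pdx1 siRNA total replicate 3 (-0.21, adjusted p 0.0419).

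Lpin1, a phosphatidate phosphatase of glycerolipid synthesis that also acts on SREBP in the nucleus, rose in both fractions. It had 16.6, 16.9 and 18.6 CPM in Pdx1 siRNA IP RNA, against 13.7, 13 and 12.9 CPM in NT IP RNA. In total RNA Lpin1 had 30.7, 32.8 and 34.1 CPM with Pdx1 siRNA, against 25.1, 26.9 and 25.5 CPM with NT siRNA. The groups did not overlap, and Lpin1 rose by 0.40 (SE 0.07, adjusted p 2.8e-04) in IP RNA and by 0.33 (SE 0.07, adjusted p 8.4e-04) in total RNA, in every setting tried.

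RefSeq promoter windows of 300 bases, from 250 before to 50 after an annotated start (build GRCm38.p6), were found for 27 of the 34 genes. The windows below belong to genes on which the siRNA results turn: Mvk, Lss and Acat2, which fell in both fractions, Srebf1, which rose in IP RNA, and Lpin1, which rose in both. Capitals mark the letters CCAAT on either strand, the core of the binding site of NF-Y, a partner of SREBP at sterol promoters. Sequences run 5′ to 3′ on the strand of the gene.
Mvk, chr5:114444019-114444318, plus strand: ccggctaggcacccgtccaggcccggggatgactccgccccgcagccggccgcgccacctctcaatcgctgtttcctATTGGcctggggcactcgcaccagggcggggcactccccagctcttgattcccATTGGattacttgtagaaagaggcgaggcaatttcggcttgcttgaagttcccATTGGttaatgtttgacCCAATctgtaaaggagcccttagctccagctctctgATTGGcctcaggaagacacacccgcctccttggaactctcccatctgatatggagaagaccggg
Lss, chr10:76531355-76531654, plus strand: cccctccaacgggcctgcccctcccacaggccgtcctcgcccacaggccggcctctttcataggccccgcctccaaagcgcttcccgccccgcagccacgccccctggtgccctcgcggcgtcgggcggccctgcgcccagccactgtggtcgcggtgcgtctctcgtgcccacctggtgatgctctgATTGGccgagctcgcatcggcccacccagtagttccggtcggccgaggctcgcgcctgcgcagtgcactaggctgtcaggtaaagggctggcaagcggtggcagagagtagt
Acat2, chr17:12960676-12960975, minus strand: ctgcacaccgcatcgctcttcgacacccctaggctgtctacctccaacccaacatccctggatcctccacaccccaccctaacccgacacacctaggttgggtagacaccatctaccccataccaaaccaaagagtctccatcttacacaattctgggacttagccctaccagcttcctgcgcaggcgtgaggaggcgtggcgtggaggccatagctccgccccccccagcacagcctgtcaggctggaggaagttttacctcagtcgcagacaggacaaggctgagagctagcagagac
Srebf1, chr11:60210422-60210721, minus strand: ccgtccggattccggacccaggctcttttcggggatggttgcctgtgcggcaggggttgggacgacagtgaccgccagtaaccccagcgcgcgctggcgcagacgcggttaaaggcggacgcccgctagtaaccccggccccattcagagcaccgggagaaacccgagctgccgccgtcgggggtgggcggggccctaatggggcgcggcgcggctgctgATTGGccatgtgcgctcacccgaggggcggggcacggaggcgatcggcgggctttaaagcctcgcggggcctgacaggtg
Lpin1, chr12:16610917-16611216, minus strand: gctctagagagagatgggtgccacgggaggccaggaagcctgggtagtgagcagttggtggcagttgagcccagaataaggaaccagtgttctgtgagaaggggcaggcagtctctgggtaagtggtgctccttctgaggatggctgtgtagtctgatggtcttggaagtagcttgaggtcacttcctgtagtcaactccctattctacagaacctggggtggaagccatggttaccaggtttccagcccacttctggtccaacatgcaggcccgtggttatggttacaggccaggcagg
The Mvk window held CCAAT 5 times, those of Lss and Srebf1 held it 1 time each, and those of Acat2 and Lpin1 did not hold it. Among 36 windows of the 27 genes, 22 held CCAAT (61.1%), against 37.4% of 32851 windows of all annotated genes, measured here or not. These background windows were not matched to the listed genes in expression or GC content. GGGCGG, a GC box of the Sp1 type, was in 26 of the 36 (72.2%), against 35.7% of all. CACGTG, an E-box, was in 6 (16.7%), against 7.15% of all. The sterol regulatory element searched as TCACNCCAC was in 0 of the 36 and in 1.24% of all windows, and TAATTA, a homeodomain core, was in 2 (5.56%), against 5.29%. All motifs were searched on both strands, and a site of one may overlap a site of another. A match is a description of the letters, and genes with several annotated starts have several windows. Srebf1 has 3 such windows, of which the printed one lies furthest downstream, and the counts hold a single transcript of the gene, so levels by start were not measured. The printed Lpin1 window, the only one found for Lpin1, lies at a start inside the gene, which spans chr12:16535669-16653903. The upstream end of Lpin1 was not searched.

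Further genes of the pathway, in lists of their own, were described by their counts, beside 29.2% higher and 30.4% lower of all genes in IP RNA and 23.8% higher and 29.2% lower in total RNA. Of 13 genes of SREBP processing, sterol sensing and DNA partners, 3 rose and 3 fell in IP RNA, and 3 rose and 5 fell in total RNA. Fbxw7, part of the ubiquitin ligase that removes nuclear SREBP, rose by 0.56 in IP RNA (adjusted p 2.8e-06) and by 0.63 in total RNA (adjusted p 9.9e-07). Nfya, an NF-Y subunit, fell by 0.51 in IP RNA (adjusted p 5.7e-05) and by 0.47 in total RNA (adjusted p 7.7e-05). Mbtps2, one of the proteases that free SREBP, rose by 0.49 in total RNA (adjusted p 6.8e-04), and Usf2 fell there by 0.53 (adjusted p 6.5e-04). In IP RNA Nfyc fell by 0.63 (adjusted p 7.7e-04) and Sp1 by 0.36 (adjusted p 0.00125). In total RNA Nfyc averaged 10.5 ± 1.31 CPM with Pdx1 siRNA and 14.8 ± 0.891 CPM with NT siRNA. Sp1 averaged 31.8 ± 1.03 and 38.2 ± 1.32 CPM there, in the same order. In IP RNA Mbtps2 averaged 44.7 ± 4.41 CPM with Pdx1 siRNA and 35.2 ± 3.14 CPM with NT siRNA. Usf2 averaged 32.3 ± 0.689 and 29.7 ± 5.59 CPM in IP RNA, in the same order. Of 11 genes of the isoprenoid branch and prenylation, 3 rose and 4 fell in IP RNA, and 1 rose and 2 fell in total RNA. Pdss1, which makes the ubiquinone tail, fell by 0.80 in IP RNA (adjusted p 4.3e-06) and by 0.52 in total RNA (adjusted p 2.3e-04). The 4 genes of cytosolic NADPH supply had 0 higher and 2 lower in IP RNA, Mthfd1 (-0.44, adjusted p 2.6e-04) and Pgd (-0.19, adjusted p 0.0381), and none past the test in total RNA.

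Genes of sterol transport, storage and LXR, a list chosen like the others with earlier results of these data known, were mostly higher with Pdx1 siRNA. Of 15 measured, 11 rose and 0 fell in each fraction, with median log2 fold changes of 0.51 in IP RNA and 0.40 in total RNA, against -0.01 in IP RNA and -0.04 in total RNA over all genes, of which 29.2% rose in IP RNA and 23.8% in total RNA. Abca1, the exporter of cellular cholesterol, averaged 79.7 ± 11.3 CPM in Pdx1 siRNA IP RNA and 34.5 ± 3.31 CPM in NT IP RNA, and rose by 1.21 (SE 0.14, adjusted p 3.0e-06). In total RNA Abca1 averaged 268 ± 49.3 CPM with Pdx1 siRNA and 102 ± 13.5 CPM with NT siRNA, and rose by 1.39 (SE 0.14, adjusted p 6.7e-07). Gramd1c, of a family that carries sterol from the plasma membrane to the endoplasmic reticulum, rose by 1.24 in IP RNA (adjusted p 1.3e-08) and by 1.18 in total RNA (adjusted p 1.5e-08). Npc2, which hands cholesterol out of lysosomes, rose by 0.61 in IP RNA (adjusted p 5.2e-05) and by 0.55 in total RNA (adjusted p 1.5e-04). Of 10 measured genes of fatty acid oxidation, 7 rose and 1 fell in IP RNA, and 8 rose and 0 fell in total RNA, beside the same shares over all genes. Cpt1a, the carnitine transferase that admits fatty acids to mitochondria, rose by 0.87 in IP RNA (adjusted p 6.2e-07) and by 1.01 in total RNA (adjusted p 1.3e-07). Of 23 measured genes of fatty acid elongation, activation and glycerolipids, 11 rose and 5 fell in IP RNA, and 9 rose and 3 fell in total RNA. Dgat2, which makes triglyceride, rose by 0.50 in IP RNA (adjusted p 1.3e-04) and by 0.50 in total RNA (adjusted p 1.8e-04), and Acsl1, an acyl-CoA synthetase, fell by 0.76 in IP RNA (adjusted p 6.3e-06) and by 0.45 in total RNA (adjusted p 5.8e-04).

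The second question was which of these mRNAs were enriched or depleted in IP RNA against total RNA. With Pdx1 siRNA, 9 listed genes were higher and 17 lower in IP RNA, 76.5% of the list, where 75.1% of all genes passed (36.3% higher and 38.7% lower). With NT siRNA, 8 were higher and 15 lower, 67.6% of the list, where 69.7% of all genes passed (33.8% higher and 35.9% lower). The medians of the list were -0.17 with Pdx1 siRNA and -0.16 with NT siRNA, against -0.02 over all genes in both. The libraries of the fractions did not overlap at 25 listed genes under either siRNA, and over all genes at 73.5% with Pdx1 siRNA and 77.5% with NT siRNA. The fatty acid arm lay on the low side. Of its 11 genes, 0 were higher and 9 lower in IP RNA with Pdx1 siRNA, with a median of -0.51, and 0 higher and 8 lower with NT siRNA, with a median of -0.39. The count of lower listed genes with Pdx1 siRNA was 10 instead of 17 with the library set as a term, and over all genes it was 3198 instead of 4897. Under that term the calls of Scap, Insig2, Fdps, Cyp51, Nsdhl, Sc5d, Dhcr7, Scd1, Scd2 and Elovl6 with Pdx1 siRNA were lost, with adjusted p of 0.0669 for Scd2 to 0.511 for Elovl6, and Me1 was higher in IP RNA (0.39, adjusted p 0.0254). With NT siRNA the call of Nsdhl was lost (-0.18, adjusted p 0.0957) and Me1 was higher (0.27, adjusted p 0.00784). The sterol arm was split, with 6 higher and 8 lower with Pdx1 siRNA and 7 higher and 6 lower with NT siRNA.

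Fdps had the largest value, with 15.9, 11.7 and 14.1 CPM in IP RNA against 51.9, 52.9 and 53 CPM in total RNA with Pdx1 siRNA, a log2 fold change of -1.93 (SE 0.29, adjusted p 1.9e-05). It was -0.33 with the library set as a term (adjusted p 0.107). With NT siRNA Fdps gave -0.33 (adjusted p 0.273), and -1.54 with NT IP replicate 3 as the only NT IP library (adjusted p 1.12e-06). Fasn, whose calls held with the library set as a term, had 97.1, 84.8 and 94.2 CPM in IP RNA against 187, 246 and 232 CPM in total RNA with Pdx1 siRNA, and 99.7, 101 and 107 CPM in IP RNA against 202, 258 and 207 CPM in total RNA with NT siRNA. It was 2.41-fold lower in IP RNA with Pdx1 siRNA (log2 -1.27, adjusted p 8.2e-08) and 2.17-fold lower with NT siRNA (log2 -1.12, adjusted p 5.2e-07). Lpin1 was lower by a log2 fold change of -0.90 (adjusted p 2.7e-08) with Pdx1 siRNA and -0.97 (adjusted p 3.3e-08) with NT siRNA, and Acly by -0.97 (adjusted p 2.6e-07) with Pdx1 siRNA and -0.76 (adjusted p 4.5e-06) with NT siRNA. Hsd17b7, which reduces a sterol ketone, had 6.71, 6.97 and 8.13 CPM in IP RNA against 14.5, 15.1 and 17 CPM in total RNA with Pdx1 siRNA, and 8.37, 7.47 and 7.07 CPM in IP RNA against 14.3, 15.7 and 13.6 CPM in total RNA with NT siRNA. Stard4 and Lss were lower in IP RNA as well, by -0.95 and -0.82 with Pdx1 siRNA and by -0.85 and -0.60 with NT siRNA. On the high side, Pmvk had 88.3, 74.3 and 77.4 CPM in IP RNA against 44.4, 38.8 and 37.3 CPM in total RNA with Pdx1 siRNA, a log2 fold change of 0.99 (adjusted p 7.0e-08). With NT siRNA Pmvk had 60.8, 56.4 and 62.8 CPM in IP RNA against 39.6, 36.1 and 36.5 CPM in total RNA, a log2 fold change of 0.68 (adjusted p 5.0e-06). Ebp was higher by 0.88 with Pdx1 siRNA and 0.79 with NT siRNA, and Mvk by 0.75 with Pdx1 siRNA and 0.60 with NT siRNA. Srebf1 was higher in IP RNA with Pdx1 siRNA by 1.10 (SE 0.12, adjusted p 6.6e-07), in all 17 settings, and gave -0.01 with NT siRNA (adjusted p 0.95).

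These values went along with transcript length over all genes. With Pdx1 siRNA the median log2 fold change of IP over total RNA was 0.70 in the shortest of 5 equal classes of transcripts (up to 1666 bases), then 0.27, -0.04 and -0.28, and -0.66 in the longest (from 4878 bases). With NT siRNA it was 0.58, 0.21, -0.03, -0.24 and -0.57. The listed genes followed the same order, with medians of 0.67, 0.11, -0.08, -0.47 and -0.55 with Pdx1 siRNA and 0.55, 0.28, -0.01, -0.27 and -0.40 with NT siRNA, over 4, 5, 9, 10 and 6 members. The 4 members of the shortest class are Pmvk (1194 bases), Fdps (1237 bases), Tm7sf2 (1471 bases) and Mvk (1660 bases), of which Fdps lay far below the median of its class with Pdx1 siRNA. The longest members are Fasn (10050 bases) and Acaca (9026 bases). Srebf1, at 4299 bases, lay far above the median of its length class with Pdx1 siRNA, and Lpin1 (4103 bases), Acly (4426 bases) and Hsd17b7 (4612 bases) lay below theirs under both siRNAs.

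**Figure D4:**
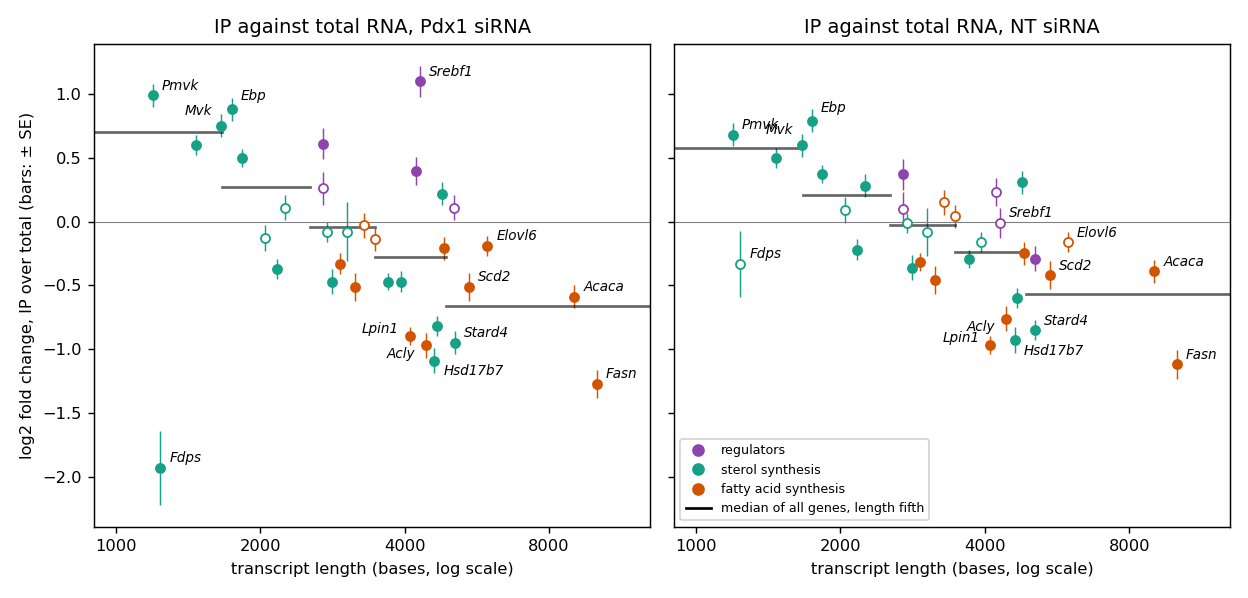
Log2 fold change of IP over total RNA (y axis, bars ± 1 SE) of the 34 listed genes against transcript length in bases (x axis, log scale), with Pdx1 siRNA on the left and NT siRNA on the right; filled points passed the test, colours are the 3 arms, and horizontal lines are medians of all genes in 5 classes of length. The lines step down from 0.70 to -0.66 with Pdx1 siRNA and from 0.58 to -0.57 with NT siRNA. Listed genes scatter around them. With Pdx1 siRNA, Srebf1 is at 1.10 and Fasn at -1.27, where the medians of their length classes are -0.28 and -0.66.

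With offsets for GC content and transcript length, 9 listed genes were higher and 13 lower in IP RNA with Pdx1 siRNA, and 7 were higher and 12 lower with NT siRNA. Of all 12643 genes, 4211 were higher and 4369 lower with Pdx1 siRNA under this setting, and 3506 higher and 3951 lower with NT siRNA. Fasn stayed lower (-0.67 with Pdx1 siRNA and -0.48 with NT siRNA), as did Lpin1 (-0.71 and -0.79), Acly (-0.71 and -0.53) and Hsd17b7 (-0.65 and -0.60). Ebp (0.50 and 0.45) stayed higher. Sc5d, a sterol desaturase, gave 0.71 with Pdx1 siRNA and 0.67 with NT siRNA, against 0.22 (adjusted p 0.0293) and 0.31 (adjusted p 0.00429) without offsets. Its call with Pdx1 siRNA and no offsets was lost without Pdx1 siRNA total replicate 2 (0.153) or Pdx1 siRNA IP replicate 3 (0.0988). The enrichment of Mvk was no longer past the test, at 0.09 (adjusted p 0.236) with Pdx1 siRNA and 0.14 (adjusted p 0.0676) with NT siRNA. For Pmvk it was 0.24 (adjusted p 0.00286) with Pdx1 siRNA and 0.08 (adjusted p 0.289) with NT siRNA. For Scd2 it was -0.04 with Pdx1 siRNA and -0.02 with NT siRNA, both without a call. Acaca and Elovl6 turned over, with Acaca at 0.17 (adjusted p 0.0627) with Pdx1 siRNA and 0.28 (adjusted p 0.00542) with NT siRNA. Elovl6 stood at 0.44 (adjusted p 6.68e-05) with Pdx1 siRNA and 0.33 (adjusted p 0.000843) with NT siRNA. The direction of the fatty acid arm as a whole in IP RNA therefore did not hold for every member under this setting.

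**Figure D5:**
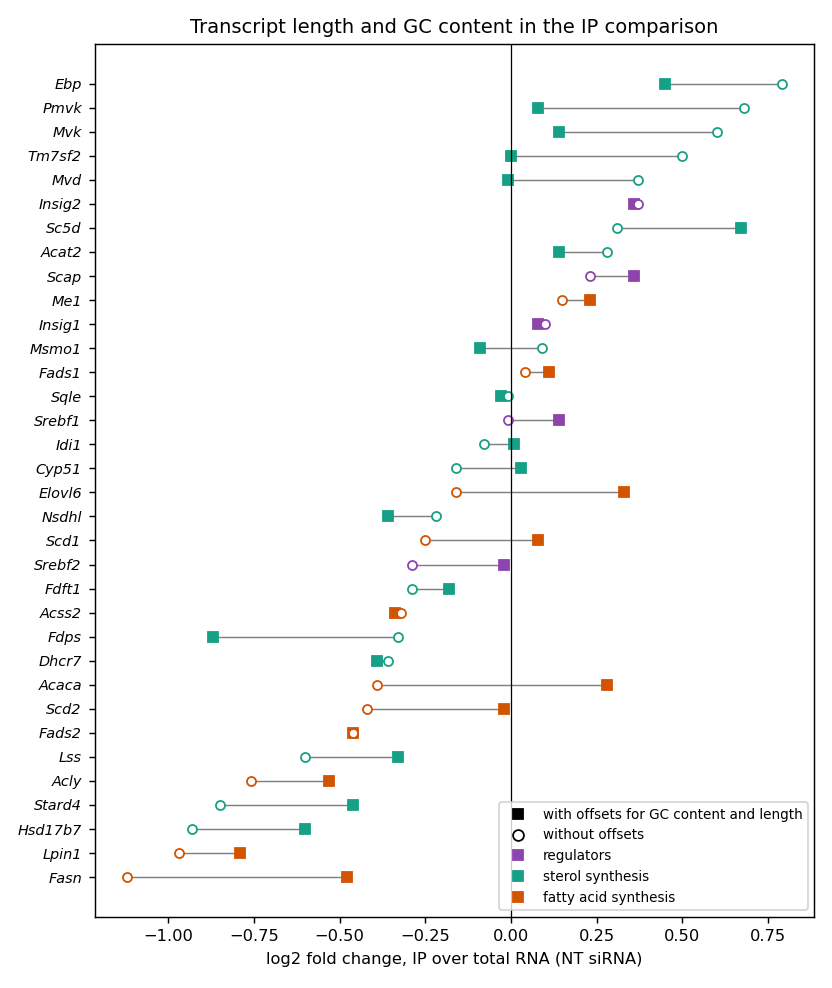
Log2 fold change of IP over total RNA with NT siRNA (x axis) for the 34 listed genes (y axis), with offsets for GC content and transcript length (squares) and without (open circles), coloured by arm. Fasn stands at -0.48 with offsets and -1.12 without, and Acaca at 0.28 with offsets and -0.39 without.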

How the data were processed

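RNA of 12 libraries from MIN6 cells was sequenced. Per the submitters' processing notes, reads were aligned with TopHat2 to mm10 and assigned with featureCounts, without versions. The deposited values are raw counts per RefSeq transcript, 1 table per library, which the authors did not normalize. The sources used here give no strand or multi-mapping settings, so reads of overlapping genes and near-identical copies may be split between them.

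Of 17133 transcripts, 16838 had a gene symbol. The other 295 held 0.577% to 0.834% of counts and were left out of library sizes. Each of the 12643 genes took the counts of its most abundant transcript; 2634 genes had several. Symbols came from RefSeq, and all per-library columns were used. Libraries held 29430690 to 45806807 counts.

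Counts were filtered with filterByExpr, scaled by TMM and fitted in edgeR 4.0.16 (R 4.3.3) in a quasi-likelihood model of all 12 libraries, with Benjamini-Hochberg adjustment over all genes and a threshold of 0.05. Contrasts were the siRNA effect in each fraction, the difference of these effects, and IP against total RNA with either siRNA. On simulated data with 12643 genes, 2-fold changes were recovered in 96% of 50 genes for the siRNA effect in IP RNA and 94% for the difference of effects. For 1.5-fold changes these were 82% and 46%. The simulation raised few genes, in a single group, and had no library set. In the data 59.7% of all genes passed for the siRNA effect in IP RNA, so these recovered shares may not hold for the data.

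All measured members are named. Values per library are given for members past a siRNA test with a log2 fold change of at least 0.5 or past the test of the difference, and for some others chosen after their values were seen. Of each further list, the named genes are from the 4 with the smallest p past the test. The members and lists were chosen with earlier results of these data known. Alternatives were RLE or upper-quartile scaling, DESeq2 1.42.0, no filter or 1 CPM in 3 libraries, insulin genes left out, summed transcripts, a replicate block, a fit on the compared libraries, the library set as a term or only NT IP replicate 3, and each library left out. Offsets for GC content and length (splines with 5 degrees of freedom) and leaving out genes with copies were added after seeing the data. Length, GC content and copies (minimap2 2.31) came from GENCODE transcripts of GRCm38.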

Additional observations from a re-analysis of the deposited data

Results flagged for a closer look

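The siRNA effect on Srebf1 differed between the fractions by a test of the difference itself. The effect in IP RNA exceeded that in total RNA by a log2 value of 1.11 (SE 0.17, adjusted p 0.0116 by the interaction term in edgeR), with effects of 1.17 in IP RNA and 0.06 in total RNA. The 3 Pdx1 siRNA IP libraries were higher than all 9 others.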

How the results depend on the processing

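Of the listed genes called, 11 of 20 in IP RNA and 7 of 15 in total RNA for the siRNA effect, and 12 of 26 with Pdx1 siRNA and 12 of 23 with NT siRNA for IP against total RNA, kept the call in every setting. The share of called genes that did so was not counted over all genes. For the siRNA effect in total RNA, 8 listed genes were higher with upper-quartile scaling, and with 1 library left out 3 to 6 were higher and 5 to 11 lower. In IP RNA, with NT IP replicate 3 as the only NT IP library, 4900 of all genes passed instead of 7542 and 6 listed genes were lower instead of 13. For the difference between fractions, 29 genes passed, against 52 with upper-quartile scaling, 327 with DESeq2, 54 without the insulin genes, 18 with offsets for GC content and length, 5 with the library set as a term, 5 with NT IP replicate 3 as the only NT IP library, and 4 to 571 with 1 library left out. Among listed genes that difference was higher for 0 with either library set alternative, and with 1 library left out for 0 to 1 higher and 0 to 1 lower. With the library set as a term, 10 listed genes instead of 17 were lower in IP than in total RNA with Pdx1 siRNA, and Me1 turned to 0.39. Over all genes, 3198 instead of 4897 were lower there. The size of that term rests on NT IP replicate 3 against the other NT IP libraries. With offsets, the siRNA effect of Mvd in IP RNA turned to -0.19. IP over total RNA turned, with Pdx1 siRNA and NT siRNA, to -0.06 and -0.01 for Mvd, -0.03 and -0.00 for Tm7sf2, 0.17 and 0.28 for Acaca, 0.22 and 0.08 for Scd1, and 0.44 and 0.33 for Elovl6. The cause of these changes was not tested. With genes that have near-identical copies left out, 7 listed genes were higher and 10 lower in IP RNA, and 5 higher and 8 lower in total RNA. Whether replicate numbers pair the samples is not stated, and correlations of deviations from the group mean were mixed. Same-numbered libraries of Pdx1 siRNA IP and NT IP gave 0.06, 0.03 and 0.09, against -0.14 to 0.11 for other-numbered ones. For Pdx1 siRNA total and NT total these were 0.49, 0.55 and -0.06, against -0.60 to 0.33. Same-numbered libraries gave 0.20, -0.08 and 0.63 between Pdx1 siRNA total and Pdx1 siRNA IP, and 0.20, 0.28 and 0.05 between NT total and NT IP. With the replicate block the difference between fractions was called at 373 genes, with 1 listed gene lower (Fdps, -1.53, adjusted p 0.0444). The library set alternatives were not run for the siRNA effect in total RNA, nor the second for IP against total RNA with Pdx1 siRNA, where they do not apply. Depth limited Idi1 most, at 25 to 98 counts per library.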
